A study of Mus musculus with 21 samples.

Results

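The data describe how RAW 264.7 cells answered the lowest dose of large silica particles, 250 µg/ml of 500 nm amorphous silica for 2 h, set against untreated cells. The 3 arrays of the exposed cells and the 3 of the untreated cells were taken by their sample titles, which is 6 of the 21 arrays of the series, and all 22626 non-control probe sets of the 22690 in the value table were kept. RAW 264.7 is a macrophage-like mouse tumour line. The cells were exposed in serum-free medium, and the labels do not say whether the untreated cells were also moved to that medium. For comparison, 3 further groups of 3 arrays were used: 500 nm silica at 500 and at 1000 µg/ml, and 10 nm silica at 5 µg/ml, all for 2 h. The spread behind each p-value came from all 21 arrays, which include 10 nm silica at 20 and 50 µg/ml for 2 h. At 5 µg/ml the 10 nm particles had the same nominal surface area as the 500 nm particles at 250 µg/ml, taking dose over diameter for equally dense spheres (ratio 1). All groups were the same line with no genetic change or other agent named. Nothing in the labels tells whether the 3 arrays of a group were separate cultures. The p-values below therefore judge differences only against how far arrays within a group differ, over all 21 arrays, and that spread may be technical.

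Macrophages take up particles by phagocytosis and carry them to lysosomes. Particle contact is known to switch on stress-responsive kinases, which act within minutes on short-lived transcription factors of the AP-1, Egr and Klf families, and these precede the release of chemokines that call in neutrophils and monocytes. Feedback genes such as the Dusp phosphatases are switched on by the same signals and damp them. Genes of the integrated stress response are switched on through the factor ATF4 when translation is slowed by stress in the cell. All levels below are log2 values of the deposited intensities, and a change of 1 on that scale is 2-fold.

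The 6 arrays resembled each other closely. Across probe sets, which are not independent replicates, they correlated at 0.982 to 0.997 within a group and at 0.984 to 0.997 between the groups. In all 7 groups of the series the replicate 3 array had the narrowest distribution of values and lay at 1 end of the first principal component of the arrays after group means were removed (60.9% of variance). The excess of 3 prime over 5 prime signal in the control probe sets, which grows as RNA degrades, was 0.38, 0.15 and 0.31 in the exposed cells and 0.17, 0.17 and 1.15 in untreated cells (log2). Untreated replicate 3 stood apart: it also had the lowest of the 6 array weights (0.164, against 0.885 to 2.32), and without it the untreated values lie within the exposed range. Its part in the results was not tested, beyond the counts without it given next to the main ones. Of 15 measured macrophage markers 11 lay among the brightest 25% of probe sets in untreated cells, where 29.3% of all genes lie, and 0 of the 15 was called between the groups. Fewer cells of a type and less RNA per cell cannot be told apart in such bulk samples.

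The response at 250 µg/ml was small in number and mostly upward. Of the 22626 probe sets, 76 (0.336%) passed an adjusted p under 0.05 in limma, 61 of them higher (0.27%) and 15 lower (0.0663%) than in untreated cells. Only 23 of the 76 moved at least 2-fold, 20 upward and 3 downward, and the median change over all probe sets was 0.00091. In all 76 the 3 exposed arrays lay beyond the 3 untreated arrays, as they did in 11.5% of all probe sets. The called probe sets with a single gene symbol belonged to 57 genes, 46 higher and 11 lower. The 46 rises ran from 1.34-fold to 3.83-fold with a median of 1.72-fold, and 15 of them reached 2-fold. Without untreated replicate 3, 56 probe sets were higher and 7 lower. The higher probe sets numbered 39 without exposed replicate 1 and also without exposed replicate 3, and 4 to 8 were lower without untreated replicate 1 or any 1 exposed array. Of the 46 genes that rose, 28 kept their call without exposed replicate 1, 30 without exposed replicate 3 and 38 without untreated replicate 3. Against the same untreated arrays, 565 probe sets (2.5%) were called at 500 µg/ml, 224 higher (0.99%) and 341 lower (1.51%). At 1000 µg/ml there were 3240 (14.3%), 1010 higher (4.46%) and 2230 lower (9.86%).

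**Figure D1:**
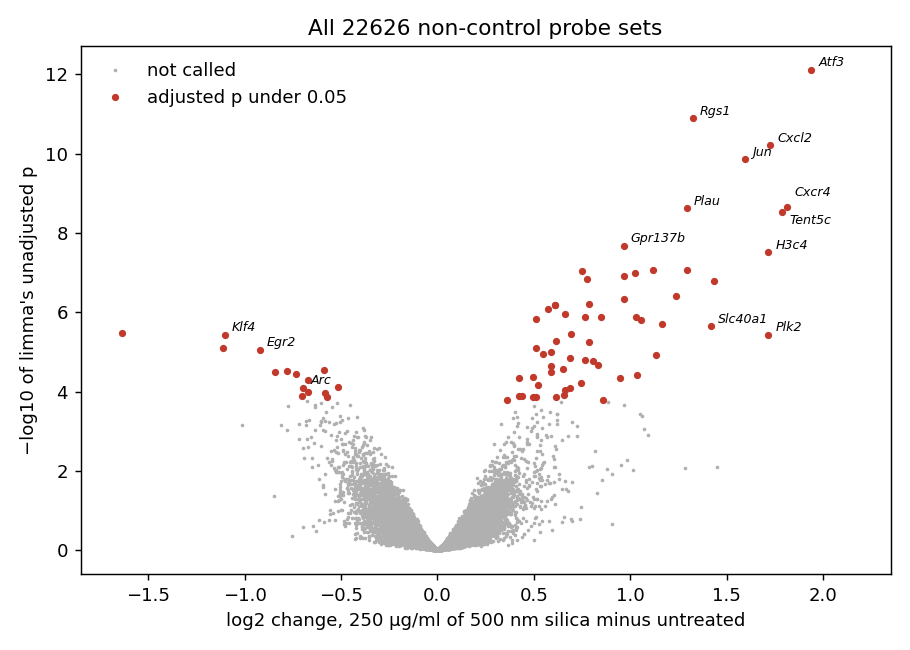
Each point is 1 of 22626 probe sets, with the log2 change between 250 µg/ml of 500 nm silica and untreated cells on the x axis and −log10 of limma's unadjusted p on the y axis. Red points are the 76 probe sets with an adjusted p under 0.05, of which 61 lie to the right of 0; Atf3 stands highest.

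The largest rise was that of Atf3, a stress-induced transcription factor of the ATF/CREB family. Its values were 10.71, 10.67 and 10.60 in exposed cells, against 8.62, 8.75 and 8.79 in untreated cells. All 3 exposed arrays lay far above all untreated ones, with hardly any spread in either group. The rise was 3.83-fold (log2 change 1.94 ± 0.11 SE, limma adjusted p = 1.77e-08). Jun, the core subunit of AP-1, had 9.57, 9.42 and 9.47 in exposed cells and 8.06, 8.0 and 7.62 in untreated cells. The groups did not overlap, and the rise was 3.02-fold (1.59 ± 0.12, adjusted p = 7.84e-07); a second Jun probe set rose by 1.43. Klf6, a zinc finger factor, rose 2.19-fold through 1 of its 3 probe sets (1.13 ± 0.19, adjusted p = 0.00628), while its brightest gave 1.09 with an adjusted p of 0.19. Klf6 lost its call without untreated replicate 1 or without exposed replicate 1 (adjusted p up to 0.0599).

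Across the 25 measured immediate early transcription factors, 4 rose (Atf3, Jun, Maff and Klf2) and 2 fell (Klf4 and Egr2) at the gene level, where each gene is represented by its brightest probe set and 0.323% of all genes were called higher and 0.0565% lower. The list's median change was 0.09, beside 0.00 over all genes. Maff, a small Maf partner protein, rose by 1.06 and Klf2, a Krüppel-like factor, by 0.66 (adjusted p = 0.0013 and 0.0316), and Klf2 lost its call without any of 5 arrays taken singly (all but untreated replicate 2). Fos and Egr1, usually taken as the first genes to answer a growth signal, gave -0.29 and -0.43 and were not called. Egr1 stood at 10.32, 10.03 and 10.23 in exposed cells and at 10.47, 10.44 and 10.95 in untreated cells, so that all exposed arrays lay below the untreated ones. At 500 and 1000 µg/ml, Egr1 gave 0.66 and 1.36 against the same untreated arrays, and 11 and then 19 of the 25 factors were called higher (1.22% and 4.97% of all genes).

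**Figure D2:**
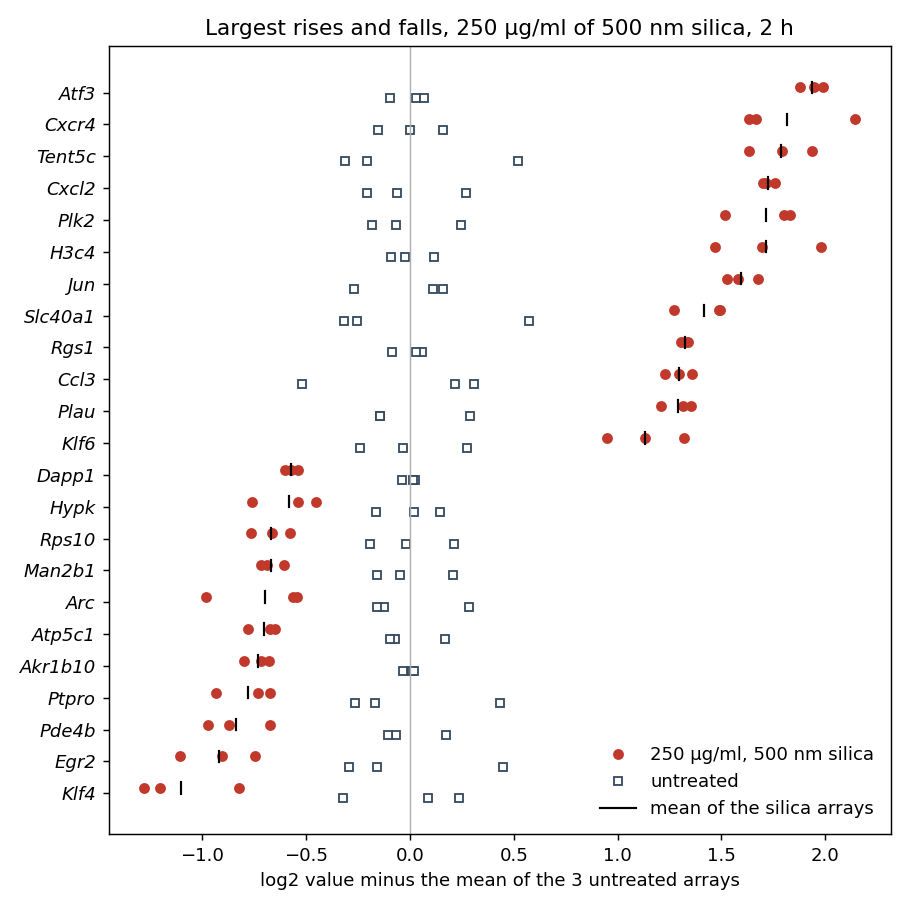
Values of every array for the 12 largest rises and the 11 falls, as log2 value minus the mean of the 3 untreated arrays; red circles are the 3 arrays with 250 µg/ml of 500 nm silica, open squares the 3 untreated arrays, and the black bar is the mean of the exposed arrays. No exposed array of these genes lies within the untreated range; Atf3 and Rgs1 show tight triplets and Tent5c, Slc40a1 and Ccl3 a wide untreated spread.

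Chemokines formed the second group. Cxcl2, which attracts neutrophils, had 8.67, 8.65 and 8.71 in exposed cells, against 6.74, 6.89 and 7.22 in untreated cells. The exposed arrays were nearly equal and all well above the untreated ones, a 3.31-fold rise (log2 change 1.73 ± 0.13, adjusted p = 4.71e-07). Ccl3, which attracts monocytes and other leukocytes, was already among the brighter genes in untreated cells, with 12.79, 12.85 and 12.72 in exposed cells against 11.71, 11.80 and 10.97 in untreated cells. The third untreated array was the low one, and the rise was 2.45-fold (1.29 ± 0.15, adjusted p = 0.000169). Ccl4, a close relative of Ccl3, rose 2.04-fold (1.03 ± 0.12, adjusted p = 0.00018). These 3 were the only called members among 19 measured chemokines, where 0.323% of all genes were called higher. In that list 0 fell, and the median was 0.05. The other 16, Ccl2 among them (0.14), lay between -0.35 and 0.28. None of 21 measured cytokine and growth factor genes was called by limma, with 1 higher and 0 lower at an unadjusted p under 0.05 (2.72% and 3.07% of all genes). Tnf, an early inflammatory cytokine and the member with the smallest p, had 9.88, 9.75 and 9.79 in exposed cells and 9.40, 9.38 and 9.11 in untreated cells, a change of 0.51 that missed the threshold (adjusted p = 0.0886) although the groups did not overlap. Tnf passed in 5 of 19 alternatives, which were the replicate block, quantile normalization, both median centrings and array weights.

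Several receptors and signalling regulators were among the genes with the largest rises. Cxcr4, the receptor for the chemokine Cxcl12, had 8.23, 7.75 and 7.72 in exposed cells, against 5.93, 6.08 and 6.24 in untreated cells. The first exposed array was the highest and all lay more than 1 unit above the untreated arrays (3.52-fold, log2 change 1.81 ± 0.17, adjusted p = 8.98e-06). Rgs1, which speeds the switching off of G proteins behind chemokine receptors, had 10.81, 10.80 and 10.78 in exposed cells and 9.53, 9.50 and 9.38 in untreated cells. That was the narrowest triplet among the large rises (2.51-fold, 1.32 ± 0.09, adjusted p = 1.45e-07). Plk2, a stress-inducible polo-like kinase, had 8.62, 8.59 and 8.31 in exposed cells and 7.04, 6.61 and 6.72 in untreated cells (3.28-fold, 1.72 ± 0.26, adjusted p = 0.00249). Dusp1, which inactivates MAP kinases, rose 1.71-fold (0.78 ± 0.09, adjusted p = 0.000221) and was the only member called among 14 MAP kinase phosphatases and Sprouty inhibitors. Gadd45b, a stress protein that acts on MAP kinase signalling and is switched on by NF-kB, rose 1.8-fold (0.85, limma adjusted p = 0.00115). It was the only member called among 20 NF-kB subunits and feedback genes, whose median was -0.08. Beside the counts of both lists, 0.323% of all genes were called higher and 0.0565% lower.

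The other large rises belonged to RNA, iron, matrix and chromatin genes. Tent5c, a non-canonical poly(A) polymerase, had 8.79, 8.48 and 8.64 in exposed cells, against 6.54, 6.64 and 7.37 in untreated cells. The third untreated array was the highest of its group, still below all exposed ones (3.45-fold, 1.79 ± 0.17, adjusted p = 9.38e-06). Slc40a1, the iron exporter ferroportin, had 7.93, 7.71 and 7.93 in exposed cells and 6.18, 6.12 and 7.01 in untreated cells, again with the third untreated array high (the calls of Tent5c, Slc40a1 and Ccl3 were kept without it; 2.67-fold, 1.42 ± 0.21, adjusted p = 0.00173). It was the only member called among 10 metal response genes, and the other 9 lay between -0.18 and 0.24. Plau, the protease urokinase, rose 2.45-fold (1.29 ± 0.12, limma adjusted p = 8.98e-06), and its second probe set rose by 1.17. It was the only called member of 21 proteases and matrix genes. Beside the counts of the metal and protease lists, 0.323% of all genes were called higher and 0.0565% lower. H3c4, a clustered histone H3 gene, had 6.97, 6.46 and 6.68 in exposed cells and 5.10, 4.90 and 4.96 in untreated cells (3.28-fold, 1.72 ± 0.19, adjusted p = 7.81e-05). A second histone H3 gene, H3c7, rose by 0.84 (not called without untreated replicate 1 or exposed replicate 1 or 3). The histone H3 genes are near-identical copies, so which of them these probe sets read is uncertain.

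In the list for the unfolded protein response and the integrated stress response, 3 of 27 measured genes rose and 0 fell, with a list median of 0.10. Over all genes 0.323% were called higher and 0.0565% lower. At an unadjusted limma p under 0.05, 6 of the 27 were higher and 0 lower (2.72% and 3.07% of all genes). The highest change in the list, 0.82, was that of a member that was not called. Chac1, which breaks down glutathione, had 8.89, 8.80 and 8.92 in exposed cells and 8.06, 8.16 and 8.31 in untreated cells (1.62-fold, log2 change 0.69, adjusted p = 0.00249). Ddit3, the stress factor CHOP, and Trib3, a pseudokinase it switches on, both rose by 0.69 as well (adjusted p = 0.00758 and 0.0288). These are targets of the ATF4 arm. The chaperones of the endoplasmic reticulum lumen did not pass the test, with Hspa5 at 0.01 and Hyou1 at -0.02. The call of Ddit3 was lost without exposed replicate 1 (adjusted p = 0.0681), and that of Trib3 without any of 5 arrays taken singly (all but untreated replicate 1). Zfand2a, an arsenite-inducible zinc finger protein that works with the proteasome, had 8.83, 8.68 and 8.81 in exposed cells and 7.63, 7.69 and 7.65 in untreated cells (2.17-fold, 1.12, adjusted p = 0.000169). The brightest Zfand2a probe set gave 1.06 and was not called (limma adjusted p = 0.0937). Limma called no member among 22 NRF2 antioxidant genes or 18 cytosolic heat shock genes, of which 3 and 1 were higher and 1 and 2 lower at an unadjusted p under 0.05, a level at which 2.72% of all genes were higher and 3.07% lower. Hmox1, the haem-degrading enzyme of the antioxidant list, named here after its values were seen, had 9.99, 10.24 and 9.83 in exposed cells and 9.21, 9.29 and 8.61 in untreated cells, a change of 0.98 that was not called (adjusted p = 0.436).

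Beyond the largest rises, several called genes are known from endosomes and lysosomes; they were picked out after their values were seen and make up no tested group. Gpr137b, a lysosomal membrane protein, had 9.15, 8.97 and 8.97 in exposed cells and 8.02, 7.99 and 8.17 in untreated cells (1.95-fold, log2 change 0.97, adjusted p = 5.96e-05). Rab7b, a small GTPase of the endosomal pathway, rose 1.72-fold (adjusted p = 0.0035). Cln8, an endoplasmic reticulum protein that exports lysosomal enzymes, rose 1.7-fold (adjusted p = 0.0082; not called without untreated replicate 1 or 2 or exposed replicate 1 or 3). Flcn, a regulator of mTORC1 at the lysosome, rose on 2 of its 3 probe sets, by 0.61 on the brightest and by 0.59 on another (adjusted p = 0.0428 and 0.014), and the brightest lost its call without any single array other than untreated replicate 3. Gla, the lysosomal alpha-galactosidase, rose 1.73-fold through 1 probe set while its brighter one gave 0.20. Of the 27 measured lysosome genes, mainly hydrolases and proton pump subunits, 0 was called by limma on the brightest probe set and 0 passed an unadjusted p under 0.05. Their changes ran from -0.15 to 0.26 and their median was 0.07. Surface and nuclear proteins of immune cells were among the smaller rises, also picked out after their values were seen. Cd83, an activation marker of antigen-presenting cells, had 10.18, 10.16 and 10.16 in exposed cells and 9.67, 9.55 and 9.75 in untreated cells (1.43-fold, 0.51, adjusted p = 0.00488). Id2, an inhibitor of helix-loop-helix factors, rose 1.53-fold, Tiparp, a PARP family enzyme, 1.68-fold, and Fcgr2b, the inhibitory Fc receptor, 1.43-fold. Fcgr2b lost its call without replicate 1 or 3 of the untreated or replicate 1 or 3 of the exposed arrays. The brightest probe sets of Id2 and Fcgr2b gave 0.66 and 0.42 and were not called (limma adjusted p = 0.722 and 0.195). Cd28, a T cell costimulatory receptor, had 8.24, 8.35 and 8.43 in exposed cells and 7.56, 7.25 and 7.79 in untreated cells (1.75-fold, 0.81, adjusted p = 0.00865; not called without untreated replicate 2 or exposed replicate 2 or 3). A second Cd28 probe set gave 0.53 and was not called (limma adjusted p = 0.321). Of the 7 T cell markers Cd28 was the only one called. At an unadjusted p under 0.05, 2 of the 7 were higher, Cd28 included, and 0 lower (2.72% of all genes were higher). Cd28 enters the sum that follows, with mean log2 values of 8.34 in exposed and 7.53 in untreated cells. The summed intensity of the 7 was 476 to 566 in exposed and 325 to 416 in untreated cells, with 0 of them among the brightest 25% of probe sets; Cd3g stood at 3.33 and 3.42 and Cd3d at 4.65 and 4.58, near the dim end of the values, in exposed and in untreated cells, and the part of other cells in the result was not tested.

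Promoter stretches are shown because Atf3 and Jun, which bind cyclic AMP response elements (CRE) and AP-1 sites, and targets of ATF4 were among the genes that rose. RefSeq promoter entries (GRCm38.p6) were found for 33 of the 46 genes that rose and for 10 of the 11 that fell, and the 250 bases before each start were searched on both strands for 5 motifs, chosen with the results known. The CRE palindrome TGACGTCA was present in 5 of the 33 (Plk2, Zfand2a, Maff, Dusp1 and Flcn) and in 0 of the 10; it is present in 1.55% of all 32851 promoters and in 2.53% of the 9887 measured genes with an entry. Capitals mark the match, and each line is read 5′ to 3′ along the gene's strand.
Plk2 (chr13:110394956-110395015, + strand): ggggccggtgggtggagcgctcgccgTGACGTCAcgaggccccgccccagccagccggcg
Zfand2a (chr5:139484583-139484642, - strand): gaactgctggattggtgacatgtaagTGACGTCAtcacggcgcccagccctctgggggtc
Maff (chr15:79347465-79347519, + strand): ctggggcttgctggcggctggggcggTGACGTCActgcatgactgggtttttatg
Dusp1 (chr17:26508582-26508641, - strand): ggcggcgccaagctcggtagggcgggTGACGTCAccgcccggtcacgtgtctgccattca
Flcn (chr11:59810055-59810114, - strand): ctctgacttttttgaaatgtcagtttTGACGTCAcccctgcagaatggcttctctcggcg
The ATF4 and C/EBP type motif TGATGNAA was present in Atf3 and Chac1, both as the reverse complement TTGCATCA, and in 3.45% of all promoters and 2.79% of the measured genes.
Atf3 (chr1:191183410-191183469, - strand): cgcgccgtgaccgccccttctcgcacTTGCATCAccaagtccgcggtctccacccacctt
Chac1 (chr2:119351023-119351082, + strand): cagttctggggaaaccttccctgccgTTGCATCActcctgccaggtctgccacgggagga
An NF-kB type motif of 10 letters with 1 free position was present in Cxcl2 alone of the 33, in 0 of the 10, in 0.356% of all promoters and in 0.536% of the measured genes.
Cxcl2 (chr5:90903776-90903837, + strand): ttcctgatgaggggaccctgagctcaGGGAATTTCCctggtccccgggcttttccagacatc
The AP-1 motif TGANTCA was found in Ddit3 alone of the 33 and in Atp5c1 alone of the 10 (6.75% of all promoters and 6.84% of the measured genes). The E-box TCACGTGA was found in Maff, Gla and Washc2 (0.785% of all promoters and 1.46% of the measured genes) and in 0 of the 10. None of these motifs contains another of the 5. A match is a run of letters in a window and not a measured binding site.

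The falls were fewer and smaller. Klf4, a Krüppel-like factor active in macrophage polarisation, had 6.14, 6.22 and 6.60 in exposed cells, against 7.10, 7.66 and 7.51 in untreated cells. All exposed arrays were lower (2.15-fold lower, log2 change -1.10 ± 0.17, adjusted p = 0.00249), and its second probe set gave -1.11. Each fall was followed on 1 called probe set, and on these Klf4 was the only fall that kept its call without each single array. Egr2, an early growth response factor, had 7.30, 7.14 and 6.94 in exposed cells and 7.89, 7.76 and 8.50 in untreated cells (1.89-fold lower, -0.92 ± 0.15, adjusted p = 0.00515; 0.0557 without exposed replicate 3), with -0.68 and no call for its second probe set. The other falls below each lost the call, on the probe set followed, without some single array. Pde4b, which breaks down cyclic AMP, fell by 0.84 on its brighter probe set and by 1.64 on the other (limma adjusted p = 0.0143 and 0.0024). The brighter one was not called without replicate 1 or 2 of either group. The other, with the larger fall, was not followed with arrays left out, so how stable its call is was not tested. Ptpro, a receptor tyrosine phosphatase, fell by 0.78, and Arc, a gene for an immediate early cytoskeletal protein, by 0.70 (adjusted p = 0.0139 and 0.0288). Ptpro lost its call without exposed replicate 2 or 3, and Arc without untreated replicate 1 or 3 or exposed replicate 1 or 2. Akr1b10, an aldo-keto reductase, fell by 0.73, Hypk, a huntingtin-interacting protein, by 0.58, and Dapp1, a signalling adaptor, by 0.57 on the dimmer of its 2 probe sets; each lost the call when any 1 exposed array was left out. The falls of Atp5c1, Man2b1 and Rps10 were seen on dimmer probe sets only. Their brightest ones gave -0.11, -0.13 and 0.044, none called.

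**Figure D3:**
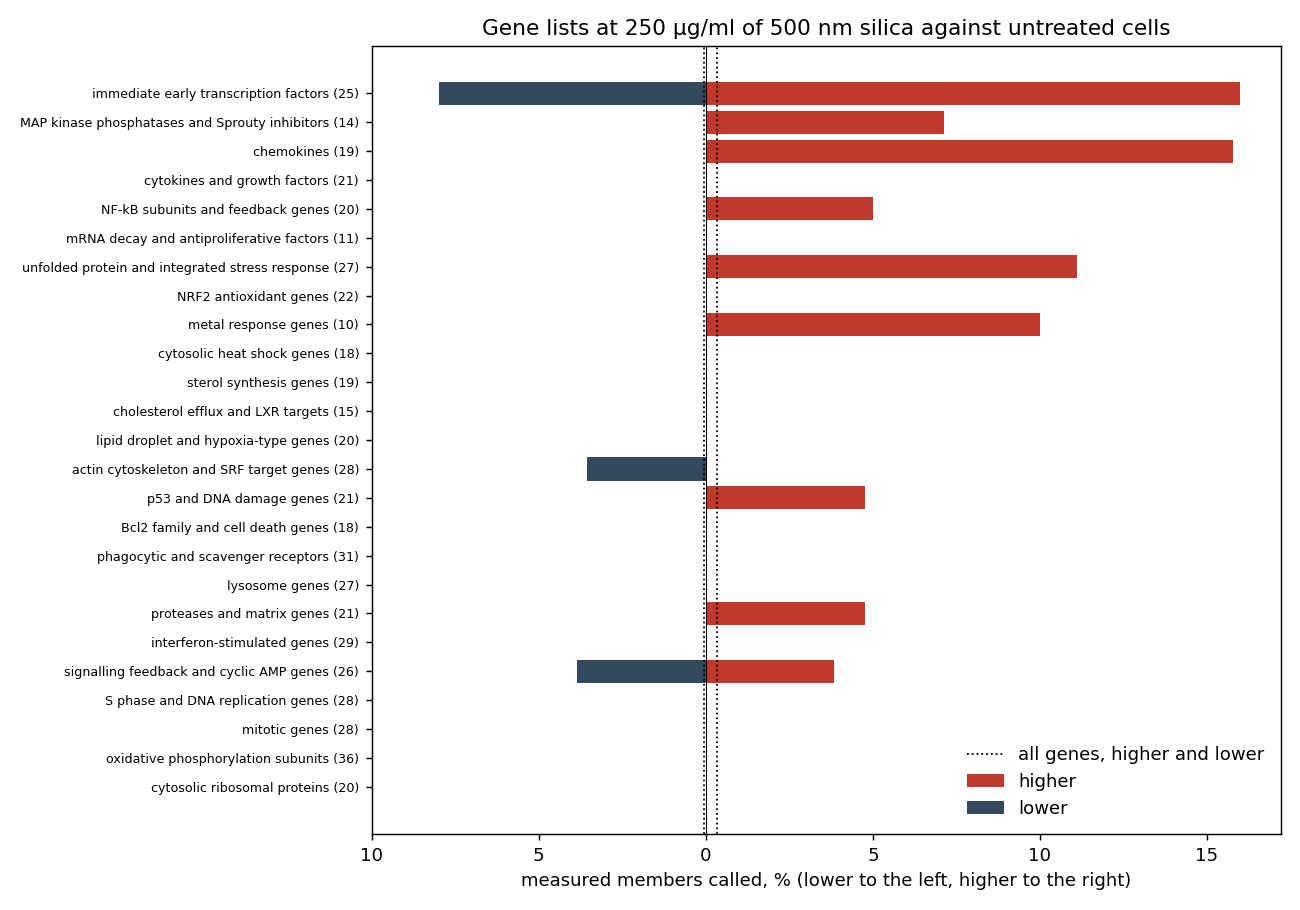
Share of the measured members of each of 25 gene lists called higher (red, to the right) or lower (blue, to the left) at 250 µg/ml of 500 nm silica against untreated cells, in percent, with the number measured in parentheses; dotted lines mark the share over all 12393 genes (0.323% higher, 0.0565% lower). Calls fall in 10 of the lists, with 4 of 25 early transcription factors and 3 of 19 chemokines higher.

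Over the 25 gene lists, calls at this dose were few (0.323% of all genes were called higher and 0.0565% lower). The p53 and DNA damage list gave 1 of 21, the Plk2 rise described above, and the signalling feedback and cyclic AMP list gave Rgs1 higher and Pde4b lower of 26. Arc was the only call among 28 actin and SRF target genes. On the brightest probe set of each gene, the remaining 15 lists had 0 calls in either direction by limma. At an unadjusted p under 0.05 each had between 0 and 6 members in 1 direction. Among them, 0 of 19 sterol synthesis genes passed, although 6 of the 19 were higher at an unadjusted p under 0.05 (2.72% of all genes were) and their median was 0.14. Hsd17b7, the sterol gene with the smallest p, had 7.68, 7.69 and 7.91 in exposed cells and 6.67, 7.31 and 7.46 in untreated cells, a change of 0.61 (adjusted p = 0.306). Against the same untreated arrays, 8 of these 19 were called higher at 500 µg/ml and 12 at 1000 µg/ml (1.22% and 4.97% of all genes). No call was made among 28 mitotic genes, 28 S phase genes, 36 oxidative phosphorylation subunits or 20 ribosomal proteins, while at unadjusted p under 0.05 these lists gave 0, 3, 0 and 1 lower and 0 higher (3.07% of all genes were lower at that level). Among 29 interferon-stimulated genes limma called 0, and the list median was -0.16. At an unadjusted p under 0.05, 1 of them was higher and 5 were lower (2.72% and 3.07% of all genes). Of 31 phagocytic and scavenger receptors limma called 0 on their brightest probe sets, with 2 higher and 1 lower at an unadjusted p under 0.05. Fcgr2b, the highest of them at 0.42, was called on another probe set (0.52, adjusted p = 0.0262). Clec7a, the beta-glucan receptor dectin-1, came closest with 7.10, 6.77 and 6.78 in exposed cells against 7.43, 7.25 and 7.61 in untreated cells (-0.54, adjusted p = 0.0629).

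Whether these genes moved further with more particles was tested between 1000 and 250 µg/ml. Over all probe sets 566 were higher (2.5%) and 1243 lower (5.49%) at 1000 than at 250 µg/ml, and 1250 and 2124 with the replicate number as a block, since same-numbered arrays of these 2 groups deviated together. Without the block the calls made up 8.0% of the probe sets. The split moved with the scaling, to 758 and 922 after median centring and to 985 and 832 with a common SD as well, and with single arrays, to 344 and 813 without replicate 3 and to 399 and 764 without replicate 1 at 250 µg/ml. Of the 46 genes that rose at 250 µg/ml, 26 were higher again at 1000 µg/ml, 14 gave no call and 6 were lower at 1000 than at 250 µg/ml; with the replicate block these counts were 27, 13 and 6, the gene that moved being Pmp22 (0.39, adjusted p = 0.0199 with the block and 0.0701 without). The arrays at 250 µg/ml enter both comparisons, so these counts describe the genes and are no independent support. Cxcl2 stood at 12.89, 12.95 and 12.98 at 1000 µg/ml, 4.26 above its mean at 250 µg/ml (adjusted p = 1.14e-13). Dusp1, a modest rise at 250 µg/ml, was 3.65 higher at 1000 µg/ml (11.36, 11.25 and 11.13), and Gadd45b 2.56 higher. Atf3 gained 1.64 and Rgs1 1.38.

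The 14 genes with no call differed by -0.37 to 0.40 between 1000 and 250 µg/ml. Against untreated cells, Cxcr4 gave 1.81, 2.16 and 1.65 at 250, 500 and 1000 µg/ml. Tent5c gave 1.79, 2.12 and 1.72, and Gpr137b 0.97, 1.05 and 1.05. The widest differences were 0.40 for Slc40a1, 0.39 for Pmp22, -0.37 for Slc25a44 and -0.29 for Flcn, with adjusted p of 0.0559, 0.0199, 0.0623 and 0.061 with the block. The other 7 lay between -0.16 and 0.25. Between 1000 and 250 µg/ml, the difference of Cxcr4 was -0.16 (95% interval without the block -0.51 to 0.19), for Tent5c -0.07 (-0.42 to 0.28) and for Gpr137b 0.09 (-0.13 to 0.30). Differences within these intervals are possible, so the levels are not shown to be equal.

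Another pattern was a response seen at the low dose and smaller or turned round at the high one. H3c4 gave 1.72, 0.26 and 0.48 at 250, 500 and 1000 µg/ml against untreated cells, and 1000 µg/ml lay 1.23 below 250 µg/ml (adjusted p = 0.000273). H3c7 gave 0.84, 0.21 and 0.27 and Cd28 0.81, 0.48 and -0.25. Zfp503, Washc2 and Tec were lower at 1000 than at 250 µg/ml by 0.77, 0.45 and 0.39. Egr2 was the clearest among the falls: -0.92, 0.17 and 1.29 against untreated cells, with 9.39, 9.35 and 9.28 at 1000 µg/ml, 2.21 above 250 µg/ml (adjusted p = 2.17e-08). Arc gave -0.70, -0.28 and 0.28. Klf4 gave -1.10, -1.15 and -0.97, with no call between 1000 and 250 µg/ml, and Akr1b10 gave -0.73, -1.36 and -1.99.

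**Figure D4:**
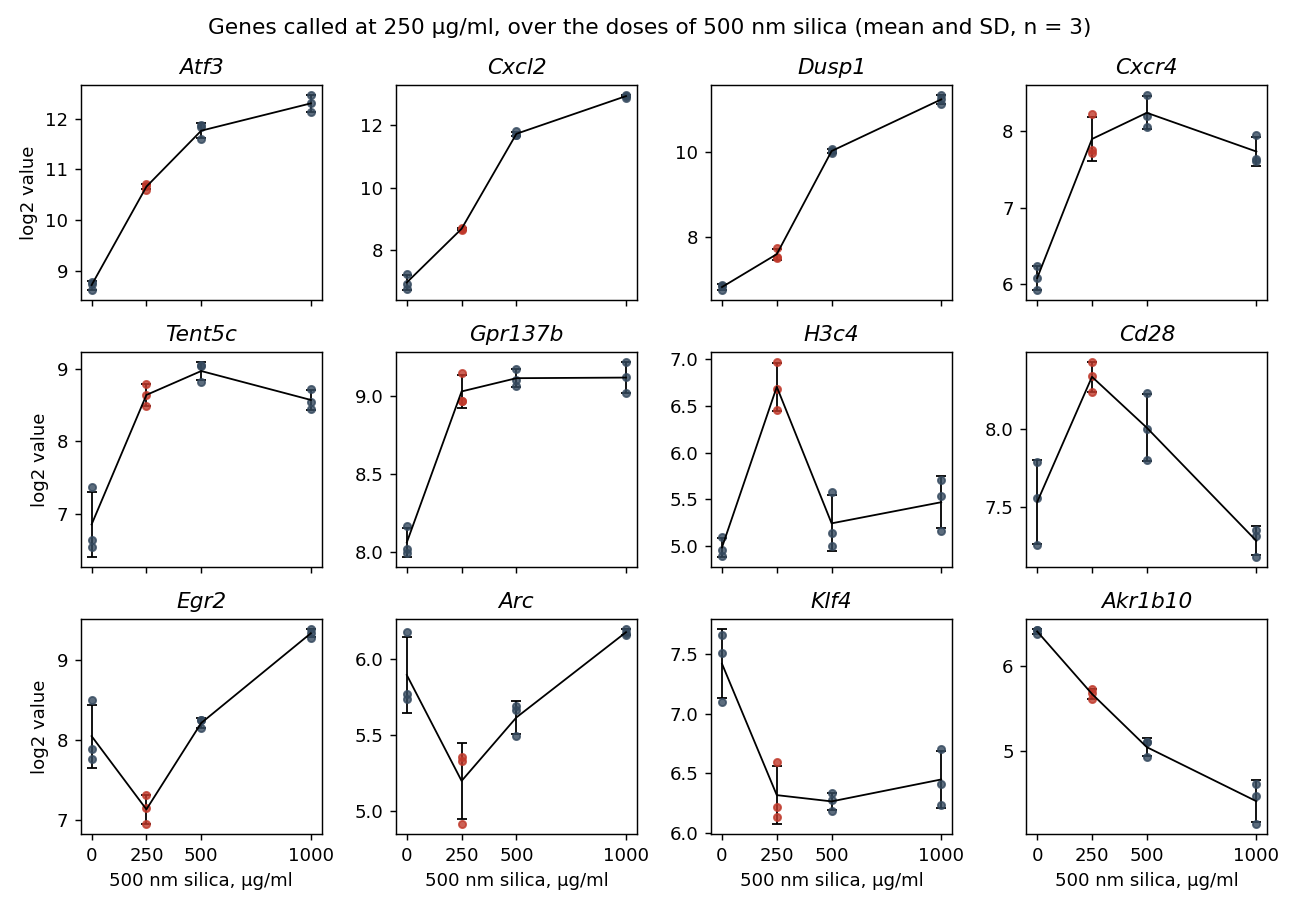
Log2 values of 12 genes in untreated cells (0) and at 250, 500 and 1000 µg/ml of 500 nm silica; points are single arrays (red at 250 µg/ml), and the line joins group means with SD (n = 3). Cxcl2 and Dusp1 climb through all doses, Cxcr4, Tent5c and Gpr137b give no call between 250 and 1000 µg/ml, H3c4 and Cd28 are highest at 250 µg/ml, and Egr2 and Arc lowest.

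Other genes changed between the doses with no call at 250 µg/ml. H1f2, a linker histone, had 10.57, 10.53 and 10.60 at 1000 µg/ml, against 8.12, 7.96 and 8.16 at 250 µg/ml, and its change at 250 µg/ml against untreated cells was 0.15. Acod1, which makes itaconate in activated macrophages, was 2.41 higher at 1000 than at 250 µg/ml and gave -0.09 at 250 µg/ml against untreated cells. The largest falls between the doses were those of Igf1 (-1.82), Rin2 (-1.63), Abca1, the cholesterol exporter (-1.62), Cnr2 (-1.54) and Calhm2 (-1.54). The Igf1 value is from a probe set other than its brightest, which gave -0.32 and no call. None of the 5 was called at 250 µg/ml, where their changes were -0.06, -0.36, -0.51, 0.09 and -0.32. Igf1 had 9.0, 8.75 and 9.10 at 250 µg/ml and 8.65, 8.67 and 9.73 in untreated cells, and the groups overlapped.

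Particle size was compared at equal nominal surface area, 250 µg/ml of 500 nm against 5 µg/ml of 10 nm silica. Only 11 probe sets (0.0486%) differed, all lower with 500 nm silica, and 0 were higher by limma, with 832 at an unadjusted p under 0.05 in either direction. They belonged to 10 genes. Hbegf, a growth factor that acts on the EGF receptor, had 5.91, 5.21 and 5.52 with 500 nm silica, against 7.11, 6.76 and 7.12 with 10 nm silica, and 5.13, 5.30 and 5.37 in untreated cells. All 500 nm arrays lay below the 10 nm arrays and overlapped the untreated ones (2.73-fold lower than with 10 nm silica, log2 difference -1.45 ± 0.19, adjusted p = 0.00372). Egr2 was 2.18-fold lower with 500 nm than with 10 nm silica (-1.12, adjusted p = 0.00372), and its 10 nm arrays (8.17, 8.35 and 8.23) lay within the untreated range. Ccl4 was above the untreated arrays with both sizes, at 10.17, 10.01 and 9.90 for 500 nm and 10.98, 11.07 and 10.75 for 10 nm silica, a difference of -0.91 (adjusted p = 0.00372). Phlda1, a pleckstrin homology-like domain protein, and Klf9, a Krüppel-like factor, differed by -1.35 and -1.09. The Klf9 value is from 1 of 7 probe sets, and its brightest gave -0.86 with no call; the calls of Phlda1 and Klf9 were lost in 8 and 7 of 19 alternatives. The other 5, named after their values were seen, were Neat1, Pard6b, Sertad1, Dusp16 and Gadd45b, with differences from -0.88 to -0.74 on their larger probe set. Without 500 nm replicate 3 none of the 11 calls was made, 4 were made without 500 nm replicate 2 and 5 without 10 nm replicate 2.

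**Figure D5:**
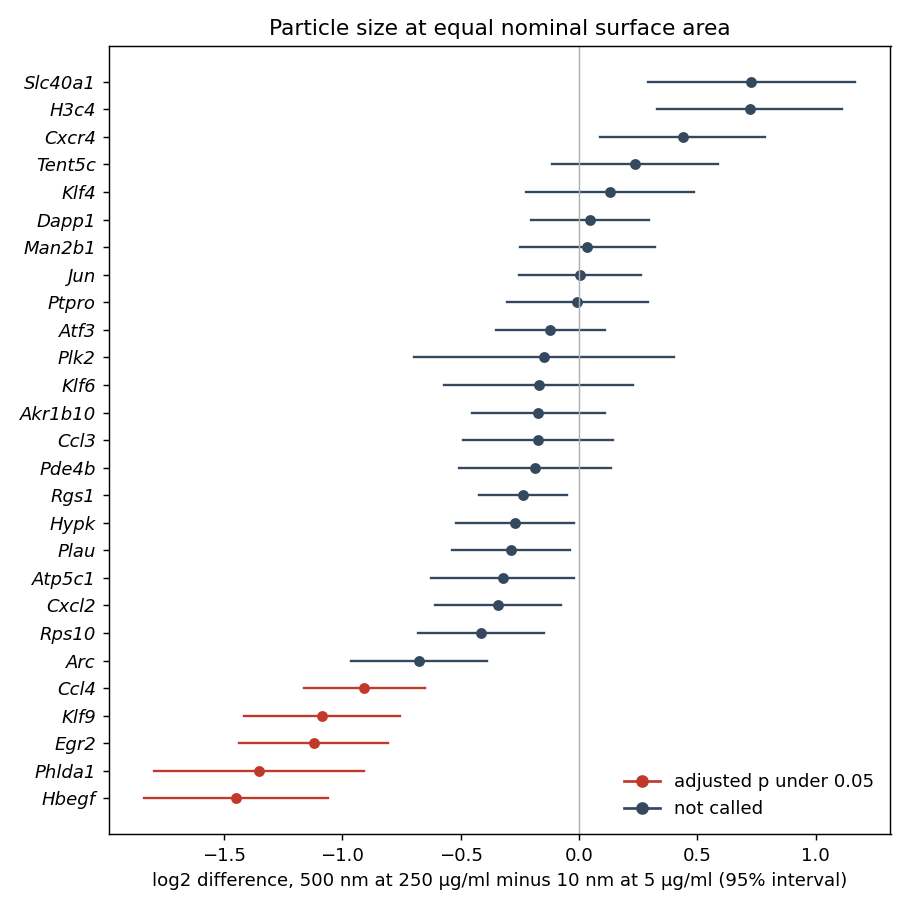
Difference in log2 value between 500 nm silica at 250 µg/ml and 10 nm silica at 5 µg/ml, with limma's 95% interval, for the 12 largest rises, the 11 falls and the 5 genes with the largest differences between the sizes. Red marks an adjusted p under 0.05: Hbegf, Phlda1, Egr2, Klf9 and Ccl4, all below 0.

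Of the 57 genes called against untreated cells, 3 (Ccl4, Gadd45b and Egr2) differed between the sizes. The other 54 gave no call, and their values were set side by side. Atf3 rose by 1.94 with 500 nm and gave 2.06 with 10 nm silica (difference -0.12, 95% interval -0.35 to 0.11). Jun gave 1.59 for both, with a difference of 0.00 (-0.25 to 0.26). The 95% interval of the difference held 0 in 31 of the 57 genes, lay below 0 in 17 and above 0 in 9, with a median distance of 0.27 from the difference to each end, so the missing calls do not show that the sizes acted alike. Such an interval leaves out 0 in 832 of all 22626 probe sets, those with an unadjusted limma p under 0.05. The 500 nm arrays that chose the 57 genes also enter this comparison. The calls and interval counts among the 57 therefore describe the genes and are no independent support. Cd28 rose by 0.81 with 500 nm and gave 0.04 with 10 nm silica, a difference of 0.77 that came close to the threshold (limma adjusted p = 0.0509). Slc40a1 gave 1.42 and 0.69, a difference of 0.73 that was far from it (limma adjusted p = 0.654).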

How the data were processed

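Messenger RNA of RAW 264.7 cells was measured on Affymetrix mouse arrays, 3 per group, from total RNA copied with an oligo-dT primer, per the labels. The values deposited by the authors are log10 values, 1 per probe set and array, made with RMA per the submitters' processing notes; its version is not given in the sources used here. The base was read from the values: base 10 puts the brightest at 22019 intensity units, base 2 at 20.3. Every fold change rests on that. The growth and treatment protocols give different plates, and the culture vessel is not settled. Arrays have no depth, and their number limits the precision.

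Values were multiplied by 3.32 to log2. Groups came from sample titles. All 21 arrays were fitted with limma 3.58.1 in R 4.3.3 (lmFit, eBayes, group means; 14 residual and 4.02 prior degrees of freedom), two-sided, with Benjamini-Hochberg adjustment over 22626 probe sets and calls at an adjusted p under 0.05. Gene names came from the platform annotation (20380 probe sets with 1 symbol, 691 with several, 1555 with none; 20351 matched a RefSeq gene by ID). At the gene level, 12393 genes were represented by their brightest probe set and each list was counted there, with no set test. Of 619 list genes 553 were measured. In simulated data with changes of 0.5, 1 and 2 log2 in this comparison, 25.4%, 82.1% and 93.9% were recovered, with 5 false of 139 calls. The simulated noise was independent between probe sets and arrays. In the real arrays 60.9% of the deviation variance lay on 1 component, so these shares may not hold for them.

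Named genes were, among called probe sets with 1 symbol whose groups did not overlap, the 12 largest rises and falls at 250 µg/ml and 5 each way in the other comparisons, and up to 3 called members per list; others are said to be chosen later. The genes, lists and motifs were chosen with earlier results of these data known. Same-numbered arrays at 1000 and 250 µg/ml correlated in their deviations (0.252 to 0.57), a pairing read from the data; those of the other comparisons did not all pass 0.1. Alternatives were a replicate block, the 6 arrays alone, quantile and median normalization, array weights, a filter on dim probe sets, 1 probe set per gene, a variance trend, a stricter threshold and leaving out arrays. Figures used matplotlib 3.10.9.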

Additional observations from a re-analysis of the deposited data

Results flagged for a closer look

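These genes responded differently in 2 groups by a test of the difference itself. With 3 arrays a group, single outlying arrays could not be tested for. The comparisons with 1000 µg/ml and those between particle sizes use the same arrays at 250 µg/ml that chose the genes. Neither is independent of that choice.

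Between particle sizes at equal nominal surface area (500 nm minus 10 nm silica, log2, limma adjusted over all probe sets), Egr2 differed by -1.12 (adjusted p = 0.00372), Ccl4 by -0.91 (adjusted p = 0.00372) and Gadd45b by -0.74 (adjusted p = 0.0193). All 3 arrays with 500 nm silica lay below the 3 with 10 nm silica for each of these genes.

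Between 1000 and 250 µg/ml of 500 nm silica, Egr2 differed by 2.21 (adjusted p = 2.17e-08) and Arc by 0.98 (adjusted p = 0.000128), both having fallen at 250 µg/ml. The genes that had risen and were lower at 1000 than at 250 µg/ml were H3c4 (-1.23), Cd28 (-1.06), Zfp503 (-0.77), H3c7 (-0.57), Washc2 (-0.45) and Tec (-0.39), with adjusted p from 6.29e-05 for Cd28 to 0.0475 for Washc2.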

How the results depend on the processing

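At 250 µg/ml against untreated cells, where 61 probe sets were higher and 15 lower, the counts became 113 and 58 with the replicate block, 224 and 161 with array weights, and 12 and 0 with the 6 arrays alone, and 4 were lower at an adjusted p under 0.01. Leaving out arrays gave 6 to 60 higher and 0 to 19 lower. Same-numbered arrays of these groups correlated in their deviations at -0.108, 0.437 and 0.494 for replicates 1, 2 and 3. The labels name no block, and what these arrays share beyond the number was not tested. Of the 57 genes, 6 (Atf3, Cxcr4, Cxcl2, Jun, Rgs1 and Plau) kept their call in all 19 alternatives; 27 of the 46 rises and 1 of the 11 falls kept it without each single array. Without replicate 1, 2 or 3 in all groups, 6, 12 and 29 rises and 0 falls kept it, and with the 6 arrays alone 10 rises and 0 falls. Each gene was followed on 1 called probe set. No gene changed direction, except that with 1 probe set per gene the brightest probe sets of Rps10 and Washc2 gave 0.044 and -0.04.

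Between sizes (0 higher, 11 lower), the counts were 4 and 36 with the block, 26 and 117 with array weights, 4 lower with the 6 arrays alone and 6 at an adjusted p under 0.01. Higher calls were 1 without dim probe sets and 1 with 1 probe set per gene. Leaving out arrays gave 0 higher and 0 to 11 lower. Between 1000 and 250 µg/ml (566 higher, 1243 lower), the block gave 1250 and 2124, array weights 3051 and 3257, 1 probe set per gene 351 and 665, and an adjusted p under 0.01 gave 293 and 666. A common SD after median centring gave 985 higher and 832 lower, median centring alone 758 and 922, with the median of all probe sets at 0.10 and 0.09 in place of 0.03. Leaving out arrays gave 133 to 659 higher and 194 to 1221 lower. The cause of these shifts was not tested. The number of arrays limits the detection of small changes.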

Other observations

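Of the 57 genes, 33 had further probe sets, and all probe sets of a gene were called in 6 of these. For 10 genes the call rested on a probe set other than the brightest one. Washc2, a subunit of the WASH complex on endosomes, had a called probe set at 0.65 with means of 5.72 in exposed and 5.06 in untreated cells, while its brightest gave -0.04. Akr1b10 had a second probe set at -0.07, and 5 brighter probe sets of Rps10 gave -0.01 to 0.16.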
